A study of Mus musculus with 2 samples.

Results

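The 10 genes described here are Hspa5, Hsp90b1, Calr, Pdia4, Pdia6, Sdf2l1, Manf, Creld2, Herpud1 and Dnajb9, which encode chaperones and helper proteins of the endoplasmic reticulum (ER) whose transcription is linked to the transcription factor ATF6. They were taken by name from the 2 deposited count tables and not by their measured values. The WT table listed 7181 genes and 9 of the 10, and the Cko table listed 6735 genes and all 10, out of 7915 genes listed in either. Dnajb9 was listed in the Cko only, so that comparisons between the genotypes rest on the other 9. The lowest maximum of any gene in either table was 4 UMIs in a cell, and the level of an unlisted gene was not taken as 0.

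Proteins that enter the secretory pathway fold in the ER with the help of chaperones, of which BiP, encoded by Hspa5, is the most widely known. ATF6 sits in the ER membrane and, when unfolded proteins accumulate, travels to the Golgi, where site-1 protease (S1P, encoded by Mbtps1) and then site-2 protease cut it and free a fragment that acts on chaperone genes in the nucleus. IRE1 with XBP1 and PERK with ATF4 form the other branches of this response, and several chaperone genes can be driven by more than one branch. In bone marrow the demand is high in cells that load granules with enzymes, such as the neutrophil progenitors, and in antibody-secreting plasma cells.

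The libraries were made from bone marrow cells (BMCs) of the fore- and hindlimbs of 1 WT mouse and 1 Cko mouse of the C57BL6/J strain at postnatal day 21, after lysis of red blood cells, with droplet-based 3′ sequencing on the 10x Genomics platform. In the Cko both Mbtps1 alleles carried floxed exon 2 and an Osx1-GFP::Cre transgene expressed Cre from the Osterix (Sp7) promoter, which is best known from osteoblast-lineage cells. Which cells had lost S1P was not measured in these libraries. In a separate assay, the paper detected the exon 2 deletion in DNA of sorted marrow neutrophils from every Cko mouse it examined. The paper proposes that the transgene also works in progenitors of the myeloid line, from which neutrophils arise. The labels give the control only as WT, and the paper describes WT mice in other experiments as S1Pf/f. An Osx-Cre control without the floxed alleles was not used in the study but, by the paper, in an earlier one. Since each genotype is 1 mouse, differences between them could not be set against a spread between animals, and none was tested. All intervals are 95% intervals for counting error in UMIs, which are counted molecules. There were 6287 barcodes in the WT and 3670 in the Cko, of which 6271 and 3662 passed a minimum of 200 genes, with medians of 6977 and 7440 UMIs. The tables shared 28 barcodes, and 1 of these fell in the same cluster in both. Ddx3y and Eif2s3y, of the Y chromosome, were listed in the WT only, with 1326 and 2298 UMIs, and Xist, the transcript of the inactive X chromosome, was listed in the Cko only, with 28053 UMIs. The libraries thus differed in sex, and in every comparison of WT with Cko sex and genotype cannot be told apart.

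Mbtps1 itself was at 31.9 CPM (UMIs per 1000000 UMIs) in all WT cells and at 31.2 CPM in all Cko cells. The libraries read the 3′ end of the transcript, outside the deleted exon 2, so this level does not check the deletion. Sp7 was listed in the WT only, where 30 of its 38 UMIs lay in the 30 cells of a stromal-like cluster at 143 CPM.

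The genes lie on 8 chromosomes (GENCODE annotation of GRCm38). Of the chaperones that bind unfolded chains, Hspa5 is at chr2:34771970-34777547 on the plus strand and Hsp90b1, which encodes GRP94, at chr10:86690209-86705509 on the minus strand. Calr, which encodes the lectin chaperone calreticulin, is at chr8:84841850-84846934 on the minus strand. The protein disulfide isomerases, which form and exchange disulfide bonds, are Pdia4 at chr6:47796141-47813430 on the minus strand and Pdia6 at chr12:17266545-17284770 on the plus strand. Of the cofactors, Sdf2l1, whose product works with BiP, is at chr16:17130138-17132383 on the minus strand, and Dnajb9, a J-domain partner of BiP, is at chr12:44205559-44210326 on the minus strand. Of the secreted or ER-resident stress proteins, Manf is at chr9:106838312-106891979 on the minus strand and Creld2 at chr15:88819646-88826683 on the plus strand. Herpud1, a membrane protein that serves ER-associated degradation rather than folding, is at chr8:94386438-94395377 on the plus strand.

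The promoters show what the genes share in sequence. The ER stress response element (ERSE), through which ATF6 is known to act together with NF-Y, was searched as CCAAT and CCACG separated by 9 bases, on both strands of the windows from 250 bases before to 50 after the RefSeq start site (GRCm38.p6). A window was found for 9 of the 10 genes, all but Manf. The ERSE was present in 5 of these 9 windows, and in 0.119% of all 32851 promoter windows. The matches follow, 5′ to 3′ on the strand of the element, with the fixed bases in capitals.
Hspa5, chr2:34772025-34772043: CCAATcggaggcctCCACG
Hsp90b1, chr10:86705533-86705551: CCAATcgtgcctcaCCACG
Hsp90b1, chr10:86705638-86705656: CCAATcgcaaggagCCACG
Pdia6, chr12:17266491-17266509: CCAATgaaaggcggCCACG
Calr, chr8:84847075-84847093: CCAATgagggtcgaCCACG
Creld2, chr15:88819520-88819538: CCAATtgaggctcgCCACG
Hsp90b1 held a pair of elements, and Hspa5 held one 65 to 47 bases before its start. The windows of Pdia4, Sdf2l1, Herpud1 and Dnajb9 held no match to these letters. Herpud1 instead held ERSE-II, searched as ATTGG and CCACG separated by 1 base after the other motifs had been seen, 52 to 42 bases before its start. This motif was in 0.0365% of all windows and in no other window of the 9.
Herpud1, chr8:94386377-94386387: ATTGGgCCACG
The shorter CCACG alone, which is part of both elements, was in all 9 windows and in 32.8% of all windows. TGACG, the core of cyclic AMP response-type elements, was in the windows of Hspa5, Herpud1 and Dnajb9 and in 20.8% of all windows. The 150 bases before the start site of Hspa5 and of Herpud1 are given in full, on the strand of the gene with the ERSE or ERSE-II in capitals, because these genes were the least like the other members in their pattern over cell types.
Hspa5, chr2:34771940-34772089: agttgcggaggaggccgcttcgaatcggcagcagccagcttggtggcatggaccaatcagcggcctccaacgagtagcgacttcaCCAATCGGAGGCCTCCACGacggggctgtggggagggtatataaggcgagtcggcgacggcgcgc
Herpud1, chr8:94386279-94386428: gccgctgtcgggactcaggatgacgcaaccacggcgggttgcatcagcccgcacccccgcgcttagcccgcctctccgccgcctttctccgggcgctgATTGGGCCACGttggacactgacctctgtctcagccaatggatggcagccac
A match describes the sequence and does not show that a factor bound there.

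Joint clustering of both libraries, from which the 10 genes and the other ER gene lists were left out, gave 19 clusters. Cell types were named from marker genes and carry the ending "-like" for that reason. The granulocyte-monocyte progenitor-like (GMP-like) class had 692 WT and 624 Cko cells in clusters 5 and 9. Cluster 9 was led by Elane, Nkg7 and Ms4a3, and all 7 GMP markers were among its leading genes. Cluster 5 was led by Ctla2a, Gng11 and Cd34 with Ctsg and Mpo, and it also held genes of other lineages, with megakaryocyte markers summing to 6940 CPM in the WT and 1810 CPM in the Cko. Immature neutrophil-like cells (462 WT, 578 Cko) and mature neutrophil-like cells (170 WT, 549 Cko) carry the series on. The erythroid cells ran from early erythroid-like (717 WT, 115 Cko) over a cluster left unnamed, with a median hemoglobin share of 24.0% of UMIs (1280 WT, 164 Cko), to erythroblast-like cells (1399 WT, 269 Cko).

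The 9 genes that both tables list were high in the progenitors of the granulocytes and low in the neutrophil-like cells that follow them. Summed over the 9 genes, the level in the GMP-like class was 3578 CPM (3537 to 3619) in the WT and 2632 CPM (2600 to 2665) in the Cko. In immature neutrophil-like cells it was 417 CPM in the WT and 357 CPM in the Cko, and in mature neutrophil-like cells 355 CPM and 238 CPM. In the erythroid cells the WT level stepped down from 1043 CPM in early erythroid-like cells to 650 CPM in the unnamed intermediate cluster and 336 CPM in erythroblast-like cells. The B cells lay in between, with 1280 CPM in WT and 1336 CPM in Cko early B cell-like cells, and 863 CPM and 694 CPM in later B cell-like cells. In the order of the 16 WT clusters with at least 50 cells, clusters 9 and 5 headed the list with overlapping intervals, and clusters 2, 1 and 4 near its end overlapped their neighbours as well. In the Cko, with 14 such clusters, cluster 5 stood alone above cluster 9. Basophil and mast cell-like cells had 4057 CPM (3713 to 4425) in the WT and 3439 CPM (3141 to 3757) in the Cko, but from 18 and 22 cells. Stromal-like cells had 2256 CPM (2057 to 2469) from 30 WT cells and 1857 CPM (1626 to 2111) from 18 Cko cells.

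**Figure D1:**
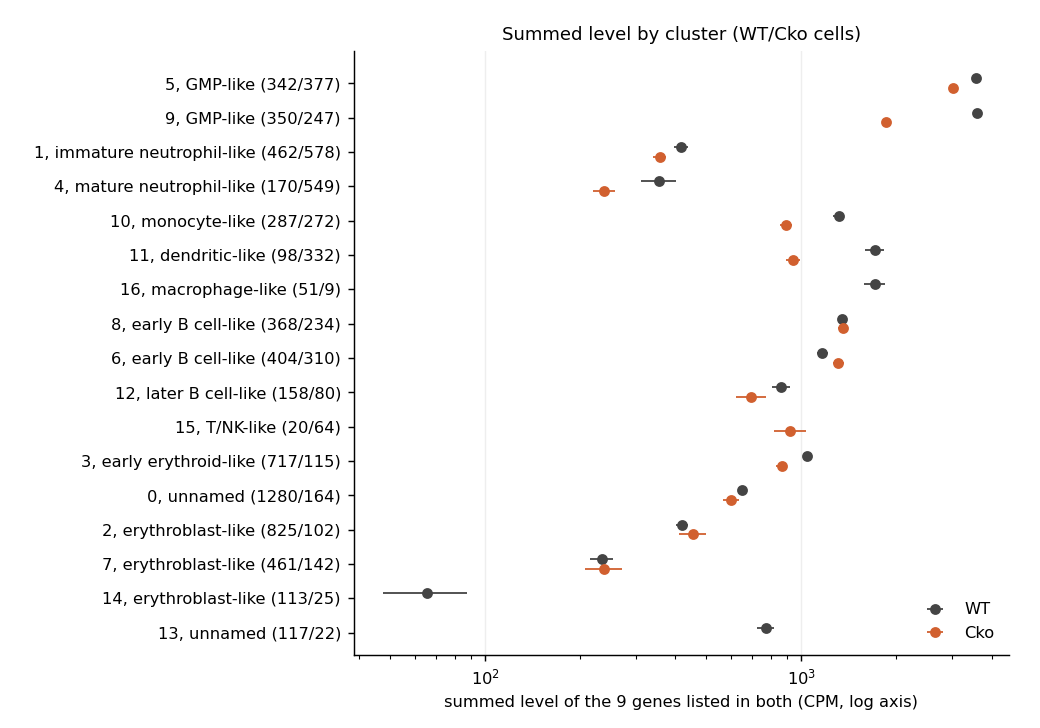
Summed level of the 9 genes listed in both libraries (x axis, CPM, log scale) in each cluster with at least 50 cells in a library, WT in grey and Cko in orange, with 95% Poisson intervals for counting error, and with the numbers of WT and Cko cells in brackets. The GMP-like clusters 5 and 9 lie to the right of all other clusters in both libraries, with cluster 9 at 3593 CPM in the WT and 1855 CPM in the Cko.

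Each chaperone followed this order with its own emphasis. Hspa5 was at 442 CPM in WT cluster 9 and at 78.2 CPM in WT mature neutrophil-like cells, whereas in the erythroid cells it was at 141 CPM in early erythroid-like cells, 122 CPM in the intermediate cluster and 119 CPM in cluster 7, whose cells held a median of 81.4% hemoglobin UMIs. In erythroblast-like cluster 14, with 113 WT cells and a median of 90.4% hemoglobin UMIs, Hspa5 was at 13.1 CPM (5.97 to 24.8), the lowest of the 16 WT clusters. In the Cko the early erythroid-like cells, the intermediate cluster and cluster 7 had 112, 116 and 119 CPM of Hspa5. The BiP transcript made up 119 of the summed 233 CPM in WT cluster 7. Hsp90b1 went from 159 CPM in early erythroid-like cells to 12.1 CPM in cluster 7 of the WT, and in B cells it was highest in cluster 6, with 259 CPM. Calr had its peak in cluster 5, with 1162 CPM in the WT and 952 CPM in the Cko, and was at 36.8 CPM in WT immature neutrophil-like cells.

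The disulfide isomerases and cofactors showed the same contrast between progenitors and later cells. Pdia6 was at 505 CPM and 539 CPM in WT clusters 5 and 9 and at 10.3 CPM in WT cluster 7. Pdia4 was at 47.9 CPM in WT cluster 5 and at most 28.3 CPM in any other WT cluster of at least 50 cells apart from cluster 9, which had 41.7 CPM. Sdf2l1 went from 515 CPM in WT cluster 9 to 27.7 CPM in immature and 7.24 CPM in mature neutrophil-like cells. All 3 were thus higher in the progenitor clusters than in the later cells named here. Manf, a secreted protein that protects cells under ER stress, was at 534 CPM in WT cluster 9 and kept 212 CPM in the intermediate erythroid cluster before it came to 11.2 CPM in cluster 7. Creld2 was at 101 CPM in WT cluster 9 and at 8.69 CPM in mature neutrophil-like cells.

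**Figure D2:**
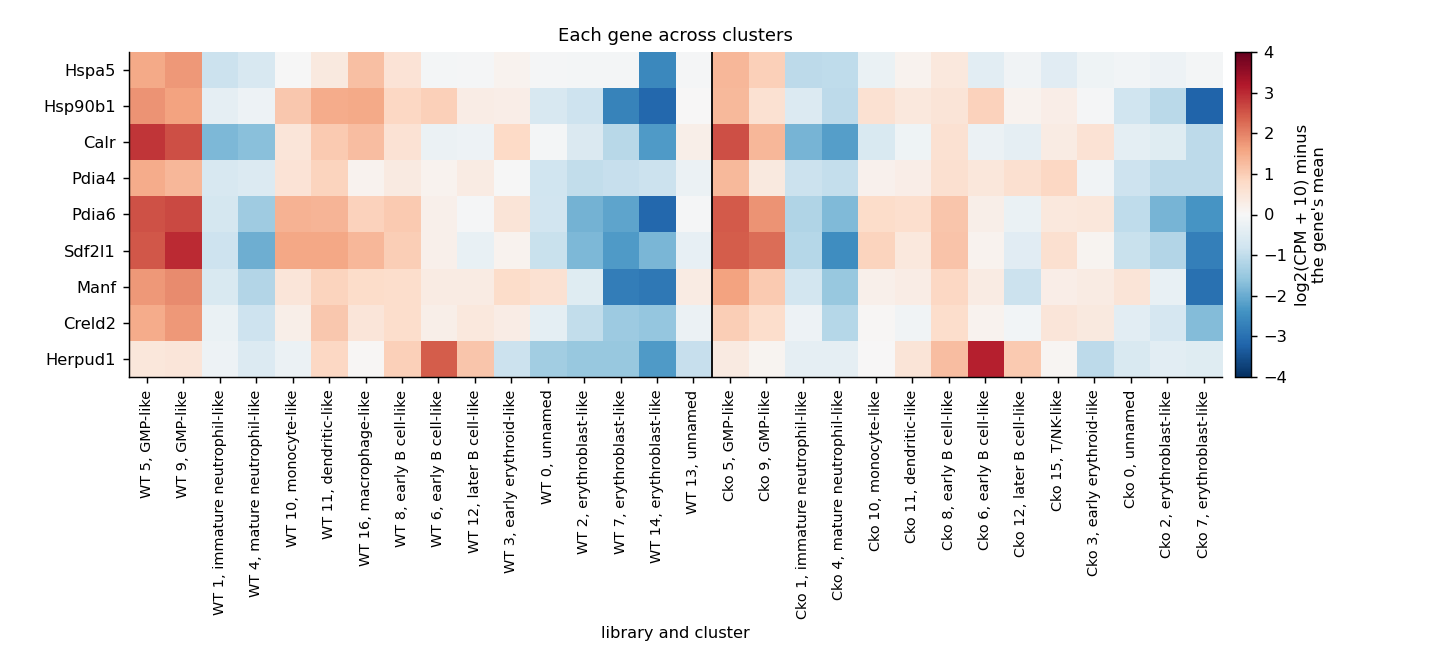
Level of each of the 9 genes (rows) in every cluster with at least 50 cells of the library (columns, WT left and Cko right of the line), as log2(CPM + 10) minus the gene's own mean over the columns. In the WT, 8 rows are darkest red in the GMP-like clusters 5 and 9. In the Cko these rows are darkest in cluster 5. Cluster 9 comes next there, except for Hsp90b1, where it ranks 4 of 14, and Pdia4, where it ranks 6. Herpud1 is darkest red in early B cell-like cluster 6.

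Over the 30 sums of a cluster and a library with at least 50 cells, the log2(CPM + 10) of a member correlated with that of the other 8 with a Pearson r of 0.81 for Hspa5 to 0.95 for Pdia6, except for Herpud1, with an r of 0.50. The points share libraries and depth, so these values describe the pattern and carry no p. Among 5132 genes with at least 1000 UMIs, the 10 that were most like the summed members were Tmed9 (r of 0.95), Ssr4, Prkcsh, Ost4, Cnpy2, Skp1a, Ddost, Lman2, Ssr2 and Rpn2 (r of 0.90). Tmed9 and Lman2 encode cargo receptors between ER and Golgi, Ssr2 and Ssr4 subunits of the translocon-associated complex, and Ddost, Ost4 and Rpn2 subunits of the oligosaccharyltransferase.

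In the Cko the summed level of the 9 genes, as CPM, was lower in each granule stage bin of the neutrophil series. The GMP-like and the immature and mature neutrophil-like cells were pooled and divided into 5 bins of granule stage with equal numbers of cells, the stage being the log2 ratio of UMIs of Camp, Ngp, Ltf, Chil3, Fcnb, Lcn2 and Cebpe, which mark later cells, to UMIs of Elane, Mpo, Prtn3 and Ctsg, the enzymes of the primary granules. In the earliest bin (328 WT, 287 Cko cells) the summed level was 4645 CPM in the WT and 3533 CPM in the Cko, a ratio of 0.761 (0.745 to 0.776). In the following bins it was 2527 CPM against 1801 CPM, with a ratio of 0.713 (0.691 to 0.736), then 504 against 383 CPM, with a ratio of 0.759 (0.694 to 0.830). In the last bins it was 386 against 292 CPM, with a ratio of 0.755 (0.673 to 0.847), and 394 against 331 CPM, with a ratio of 0.840 (0.754 to 0.937). As CPM the Cko was below the WT in all 5 bins, and each interval lay below 1. Over bins 1 to 5 the WT had 20363 member UMIs in 328 cells, 9195 in 337, 918 in 232, 539 in 241 and 478 in 186. The Cko had 17597 in 287, 6702 in 278, 1056 in 383, 665 in 374 and 1126 in 429. Per cell, the libraries were thus close in bin 1, and the Cko was not lower in bin 5. This binning was chosen after the data had been seen. It did not make the stage equal within a bin. In the earliest bin Lcn2, Ngp and Camp had Cko to WT ratios of 1.96, 1.57 and 1.42, but Fcnb had 0.525 and Elane 0.830. The part of such differences in the members' ratios was not tested.

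A gene was read in a bin where it had at least 100 UMIs over both libraries, which gave 36 values for the 9 genes, and 34 of the 36 ratios were below 1. Herpud1 in bin 4 (log2 ratio of 0.22) and Calr in bin 5 (log2 ratio of 0.00) were the exceptions. The same 9 genes and libraries recur over the bins, so the 36 values are not separate observations. The share of all genes with a ratio below 1 was not counted, and their median ratio was slightly below 1 in each bin. The median log2 ratio of the members was -0.39, -0.51, -0.49, -0.39 and -0.27 in the 5 bins, beside medians of -0.06, -0.05, -0.05, -0.02 and -0.00 over all genes. In the bin of the earliest cells 2 of 9 members were lower in the Cko by at least 1.5-fold, Creld2 (log2 ratio of -0.77) and Hsp90b1 (-0.60), where 3.25% of 4865 genes were lower by that fold. In bin 2 it was again Creld2 (-0.88) and Hsp90b1 (-0.64), 2 of 9, beside 6.01% of genes. In bin 3 it was Pdia6 (-0.90), 1 of 7, beside 7.05% of genes, and in bins 4 and 5 no member of 5 and 6 passed the fold, beside 5.29% and 2.65% of genes. Most of the 36 values thus differed by less than 1.5-fold. In bin 4 Pdia6, Sdf2l1, Creld2 and Pdia4 were under 100 UMIs and are not among these values. Their ratios there were 0.575, 0.583, 0.668 and 0.306.

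**Figure D3:**
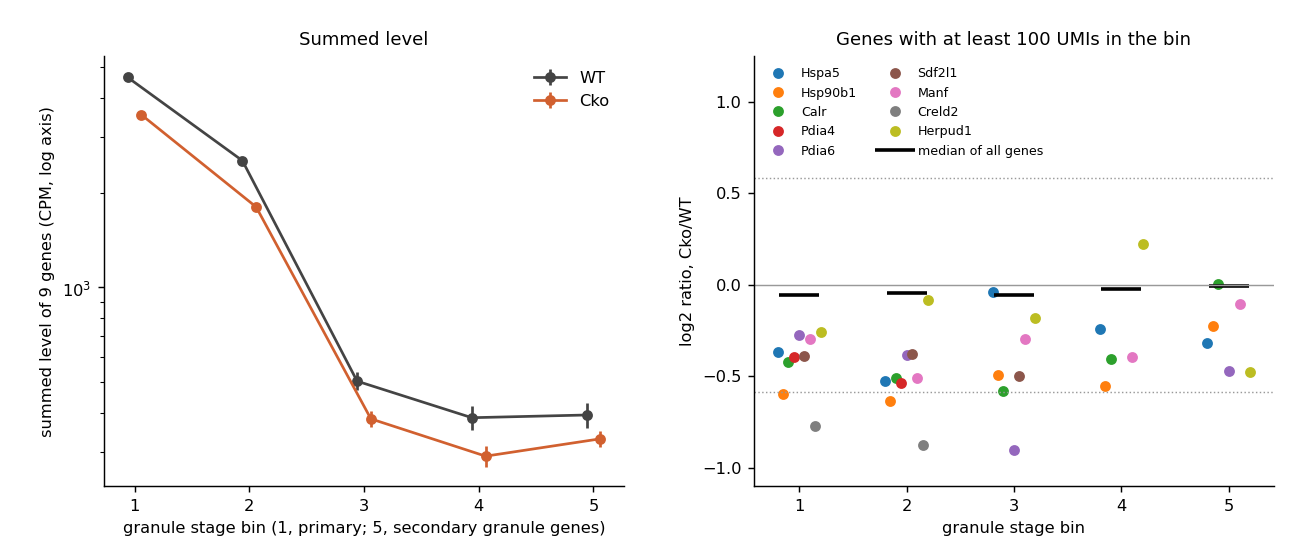
Left, summed level of the 9 genes (CPM, log axis) in 5 bins of granule stage of the neutrophil series, WT in grey and Cko in orange, with 95% Poisson intervals. Right, log2 ratio of Cko to WT for each gene with at least 100 UMIs in the bin, with black bars at the median of all genes and dotted lines at a fold of 1.5. The Cko lies below the WT in all 5 bins, and 34 of the 36 points on the right are below 0.

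Other lists of ER and chaperone genes were counted in the same bins. A gene counts again in each bin where it was read, and no share of all genes below 1 stands beside these counts. The list of ER entry and translocation (Sec61, signal peptidase, translocon-associated and oligosaccharyltransferase subunits) had 69 of 80 ratios below 1, but its median log2 ratio lay between -0.06 and -0.24 and 3 of the 80 passed the fold. Other ER folding genes, such as Canx, P4hb and Pdia3, had 35 of 50 ratios below 1, and 4 of 50 were lower by the fold. Of the cytosolic chaperones, 49 of 75 ratios were below 1, and 3 passed the fold. Genes of ER-associated degradation had 27 of 39 below 1 and 3 past the fold. Of the stress sensors and factors Mbtps1, Xbp1 and Atf6b, 11 of 11 ratios were below 1 and none passed the fold. The primary granule genes had 9 of 15 ratios below 1 and none past the fold. They also define the stage, so their ratios are not independent of the bins. Most ratios of the PERK and ATF4 list went the other way, with 3 of 12 below 1, but 1 of these was lower in the Cko by the fold. Hemoglobin genes had 20 of 20 ratios below 1, and 16 of them passed the fold. The part of hemoglobin RNA in the members' ratios was not tested.

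In immature neutrophil-like cells the summed ratio was 0.856 and 1 of 8 members, Pdia6, was lower by the fold, beside 2.55% of genes. Compared as UMIs per cell the direction turned, with a log2 ratio of 0.05 in place of -0.22. The GMP markers summed to 1339 CPM in the WT and 893 CPM in the Cko of this class, and hemoglobin genes to 5101 and 850 CPM. In mature neutrophil-like cells it was 0.671 (0.577 to 0.781), and 1 of 4 members, Hsp90b1, was lower by the fold, beside 2.69% of genes. The log2 ratio was -0.58, and -1.84 when the libraries were clustered separately. Of 9 mature neutrophil markers 8 were higher in the Cko cells of this class, with sums of 5864 CPM in the WT and 11105 CPM in the Cko, and hemoglobin genes summed to 13500 and 1455 CPM. The part of these differences in either result was not tested.

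Within the GMP-like class as a whole the summed ratio was 0.736 (0.723 to 0.748), and 2 of 9 members were lower by the fold, Hsp90b1 with a ratio of 0.649 (0.617 to 0.682) and Creld2 with 0.569 (0.507 to 0.638), beside 6.21% of 5395 genes. No member passed a fold of 2, and none passed 1.5 when UMIs per cell were compared. The share of all genes was not computed at these settings. All 9 ratios were below 1, and the median log2 ratio of the members was -0.43 beside -0.08 over all genes. The clusters of the class differed. In cluster 5 the summed ratio was 0.849 (0.831 to 0.868), and none of 9 members passed the fold, beside 9.15% of genes. In the Elane-led cluster 9 it was 0.516 (0.501 to 0.532), and 8 of 9 members were lower by the fold, beside 7.91% of 4322 genes. Here Calr was at 943 CPM in the WT and 390 CPM in the Cko, with a ratio of 0.414 (0.388 to 0.441). Hsp90b1 was at 413 and 204 CPM, with a ratio of 0.495 (0.451 to 0.542). Hspa5 was at 442 and 255 CPM, with a ratio of 0.578 (0.531 to 0.628). Pdia4 and Creld2 had ratios of 0.410 (0.296 to 0.560) and 0.441 (0.361 to 0.536), and Sdf2l1, Manf and Pdia6 had ratios of 0.587, 0.550 and 0.554. Herpud1 did not pass the fold, with 66.2 CPM in the WT, 49.4 CPM in the Cko and a ratio of 0.746 (0.609 to 0.912).

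The size of the difference in cluster 9 depended on where the cluster ended. Its Cko cells were later in granule stage, with a median of -0.29 against -2.94 in the WT, and 21.5% of them against 41.7% of the WT cells were in the earliest of 3 stage bins of this cluster. Lcn2 was 2.97 times and Ltf 2.46 times the WT level in the Cko, and Ngp, Camp, Chil3, Cebpe and Fcnb had ratios of 2.09, 1.61, 1.59, 1.33 and 1.13. Of the primary granule genes, Mpo, Prtn3, Elane and Ctsg had ratios of 0.961, 0.95, 0.835 and 0.708. Eosinophil markers summed to 13.2 CPM in the WT and 297 CPM in the Cko, and hemoglobin genes to 10982 CPM and 1282 CPM. The part of these differences in the result was not tested. Within the 3 stage bins of the cluster the summed ratio was 0.610 (0.581 to 0.640), 0.680 (0.649 to 0.714) and 0.616 (0.567 to 0.668). Stage genes still differed within these bins, with ratios of 3.12, 1.46 and 2.04 for Lcn2 and 1.09, 0.958 and 0.604 for Elane. Camp had 1.58, 0.812 and 1.09. Their part in the summed ratios was not tested. At 5 other clustering settings the cluster with the highest Elane share was the only one named GMP-like, and its log2 ratio came to between -0.55 and -0.37 in place of -0.95, with 2 or 3 members past the fold. It held 547 WT and 504 Cko cells at resolution 0.4 and 366 and 319 with 500 genes. At resolution 2.0, without regression and without doublets it held 340 and 256, 291 and 220, and 364 and 256 cells, beside the 350 and 247 of cluster 9. Taken without clusters, the 349 WT and 246 Cko cells with at least 1% of UMIs from Elane had a log2 ratio of -0.44. The summed level was lower in the Cko at each of these settings. The share of all genes past the fold was not computed for them.

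**Figure D4:**
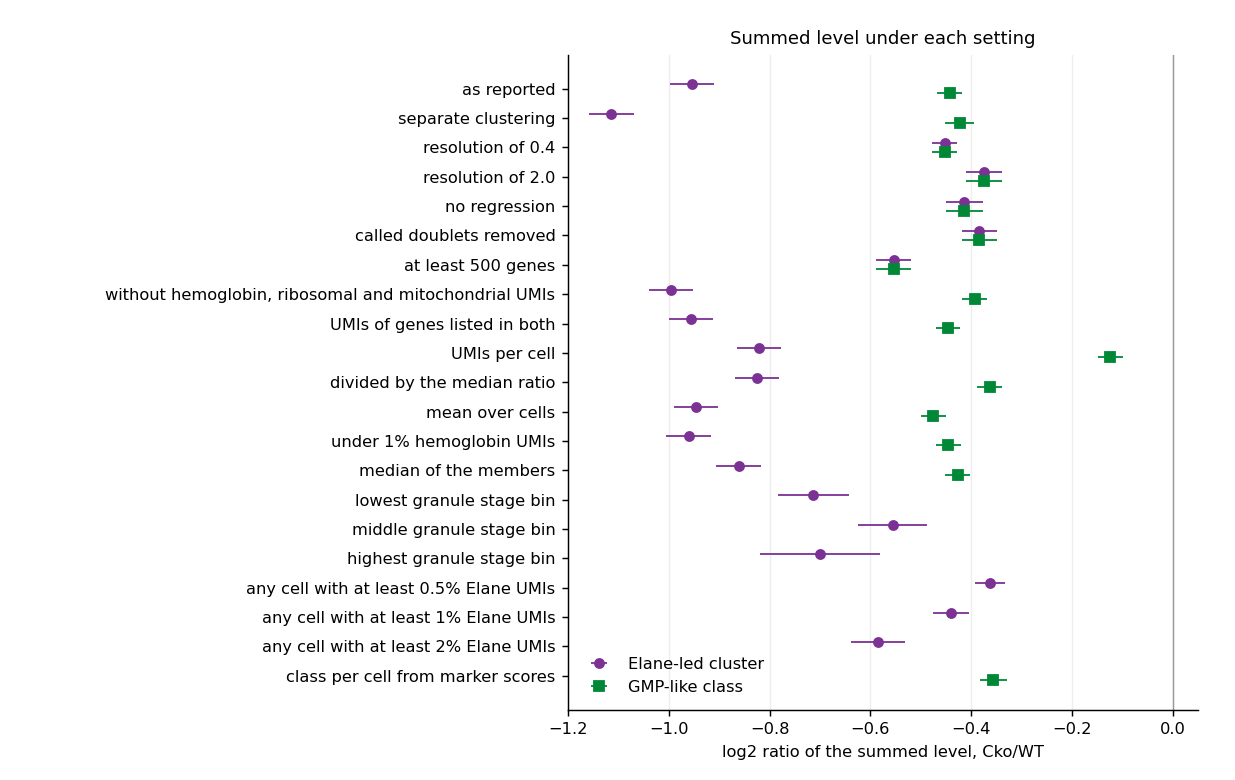
Log2 ratio of the summed level, Cko to WT (x axis), for the Elane-led cluster (purple circles) and the GMP-like class (green squares) at each setting tried, with 95% intervals for counting error. All points lie left of 0, between -1.11 and -0.12, and where the Elane-led cluster is the whole class the symbols share 1 value.

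The share of cells with a UMI was read after each cell was thinned to 3000 UMIs. Calr was seen in 77.4% (72.7 to 81.7) of the 350 WT cells of cluster 9 and in 53.8% (47.4 to 60.2) of the 247 Cko cells, and in 92.6% and 82.6% before thinning, at medians of 11437 and 12988 UMIs. In cluster 4, mature neutrophil-like, it was in 13.5% of WT and 7.1% of Cko cells, at medians of 3743 and 4425 UMIs. Hspa5 was seen in 63.7% (58.4 to 68.8) of WT and 47.0% (40.6 to 53.4) of Cko cells of cluster 9. The cells with the highest summed level were placed differently too. Of the 63 WT cells that made up the top 1%, 37 were in cluster 9 and 14 in cluster 5, whereas of the 37 Cko cells that did so, 6 were in cluster 9 and 27 in cluster 5. The small basophil and mast cell-like cluster, with 18 WT and 22 Cko cells, held 4 of these top cells in each library.

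In monocyte-like cells (287 WT, 272 Cko) the summed level was 1312 CPM in the WT and 894 CPM in the Cko, with a ratio of 0.681 (0.643 to 0.722). Calr was at 216 and 96.6 CPM, with a ratio of 0.447 (0.380 to 0.526), and Pdia6 and Sdf2l1 had ratios of 0.613 and 0.612. These 3 of 8 members were lower by the fold, beside 5.28% of genes, and the other ER folding list had none of 11 past it. The count of members was 0 without doublets and with 500 genes per cell, and 4 at resolution 0.4. The share of all genes was not computed at these settings. Herpud1 stood on the other side, with 37.1 CPM in the WT and 45.8 CPM in the Cko and a ratio of 1.24 (0.911 to 1.68), whose interval held 1. In these cells the GMP markers summed to 2997 CPM in the WT and 2202 CPM in the Cko, immature neutrophil markers to 1618 and 3571 CPM, with 8 of 8 higher in the Cko, macrophage markers to 63.5 and 160 CPM and hemoglobin genes to 16383 and 5323 CPM. The part of these differences in the result was not tested.

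In dendritic-like cells (98 WT, 332 Cko) the summed level was 1706 CPM in the WT and 940 CPM in the Cko, with a ratio of 0.551 (0.507 to 0.60), and 5 of 7 members were lower by the fold. The background was wide here, since 19.2% of all genes were lower by the fold as well, and 8 of 15 cytosolic chaperones. The cells differed in other markers: plasmacytoid dendritic cell genes summed to 5629 CPM in the WT and 2171 CPM in the Cko, macrophage genes to 293 and 1828 CPM, and 5 of 7 genes of the dissociation response, such as Dusp1, Ier2 and Fos, were higher in the Cko. The part of these differences in the result was not tested.

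Early B cell-like cells, by contrast, had a summed ratio near 1, at 1.04 (1.01 to 1.08), with Hspa5 at 0.853 (0.772 to 0.943), Calr at 0.98 (0.897 to 1.07) and Manf at 1.05 (0.961 to 1.14). No member was lower by the fold, beside 2.88% of genes. Later B cell-like cells had a summed ratio of 0.804 (0.708 to 0.911), with Manf alone lower by the fold of 6 members, beside 18.6% of genes. Hemoglobin genes summed to 233541 CPM in the WT and 84636 CPM in the Cko of this class, immature neutrophil markers to 29172 and 47229 CPM and dendritic markers to 1740 and 7699 CPM. The log2 ratio was -0.31, and -0.52 without hemoglobin, ribosomal and mitochondrial UMIs. Early erythroid-like cells had 0.832 (0.796 to 0.869) and none of 9 past the fold, beside 9.0% of genes, and erythroblast-like cells 0.955 (0.876 to 1.04), with Hsp90b1 lower as 1 of 6, beside 18% of genes. As UMIs per cell both turned direction, with log2 ratios of 0.16 in early erythroid-like and 0.34 in erythroblast-like cells, and the latter was also 0.27 with libraries clustered separately. Of the 9 named classes with at least 50 cells in both libraries, 8 had a summed ratio below 1. That count came to 5 at a clustering resolution of 2.0, and to 5 when UMIs per cell were compared in place of CPM. Among the classes with fewer cells, macrophage-like cells had 1711 CPM in the WT (51 cells) and 2133 CPM in the Cko (9 cells). Over all cells the ratio was nonetheless 1.02 (1.01 to 1.04), with 1234 CPM in the WT and 1264 CPM in the Cko, and 1 of 9 members, Herpud1, was higher by the fold, beside 18.4% of genes. The makeup of the libraries moved with this value: erythroblast-like cells were 22.3% of the WT and 7.35% of the Cko cells, and GMP-like cells 11% and 17%.

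Herpud1 was the member with a pattern of its own. Its highest level was in early B cell-like cluster 6, led by Myl4 and Fcrla with Vpreb3, Ebf1 and Cd79b, where it was at 287 CPM (263 to 311) in the WT and 463 CPM (434 to 494) in the Cko, with a ratio of 1.62 (1.45 to 1.80). In cluster 8, the earlier B cells led by Igll1, Vpreb1 and Dntt, it was at 95.6 and 119 CPM, with a ratio of 1.24. Over the whole early B cell-like class the ratio was 1.57 (1.44 to 1.71), 1 of 9 members higher by the fold, beside 2.07% of genes. After thinning, Herpud1 was seen in 57.7% (52.7 to 62.5) of WT and 74.5% (69.3 to 79.3) of Cko cells of cluster 6, and in 2.4% of WT and 9.9% of Cko cells of cluster 7. The early B cell markers summed to 12887 CPM in the WT and 12543 CPM in the Cko of cluster 6, where Calr was at 128 and 126 CPM.

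In the late erythroid cells Herpud1 was higher in the Cko together with genes of the PERK and ATF4 list. Eif2ak3, the gene of PERK, was listed in neither library, and whether PERK was active was not tested. In erythroblast-like cells Herpud1 was at 8.53 CPM (68 UMIs) in the WT and 27.5 CPM (56 UMIs) in the Cko, with a ratio of 3.22 (2.22 to 4.66). Ddit3, which encodes the stress factor CHOP, was at 25.7 and 275 CPM there, with a ratio of 10.7 (9.10 to 12.6). Atf4, the factor that PERK signalling increases, was at 81.4 and 229 CPM, with a ratio of 2.82 (2.50 to 3.18). Asns, the asparagine synthetase induced by ATF4, had a ratio of 3.52 (2.99 to 4.14), and Ppp1r15a, which encodes the phosphatase subunit GADD34, a ratio of 1.88 (1.78 to 1.99). All 4 genes of this list with at least 100 UMIs were higher by the fold, as were 15.8% of all genes in these cells. With libraries clustered separately Ppp1r15a no longer passed the fold, with a log2 ratio of 0.31 in place of 0.91. Hspa5 was at 119 CPM in both libraries in cluster 7, and Calr at 65.1 and 68.4 CPM. In the unnamed intermediate cluster Herpud1 had a ratio of 2.45 (1.72 to 3.43), Ddit3 one of 3.87 and Atf4 one of 1.85, beside 2.86% of genes higher, whereas Asns, with 1.32, and Ppp1r15a, with 1.09, did not pass the fold. In early erythroid-like cells, the stage before, the ratios were 0.80 (0.57 to 1.10) for Herpud1, 0.77 for Ddit3 and 0.82 for Atf4. Early B cell markers summed to 3958 and 4421 CPM in cluster 2 and 1846 and 2142 CPM in cluster 7, and mature neutrophil markers to 59.9 and 199 CPM in cluster 7. Their part in the Herpud1 difference was not tested.

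**Figure D5:**
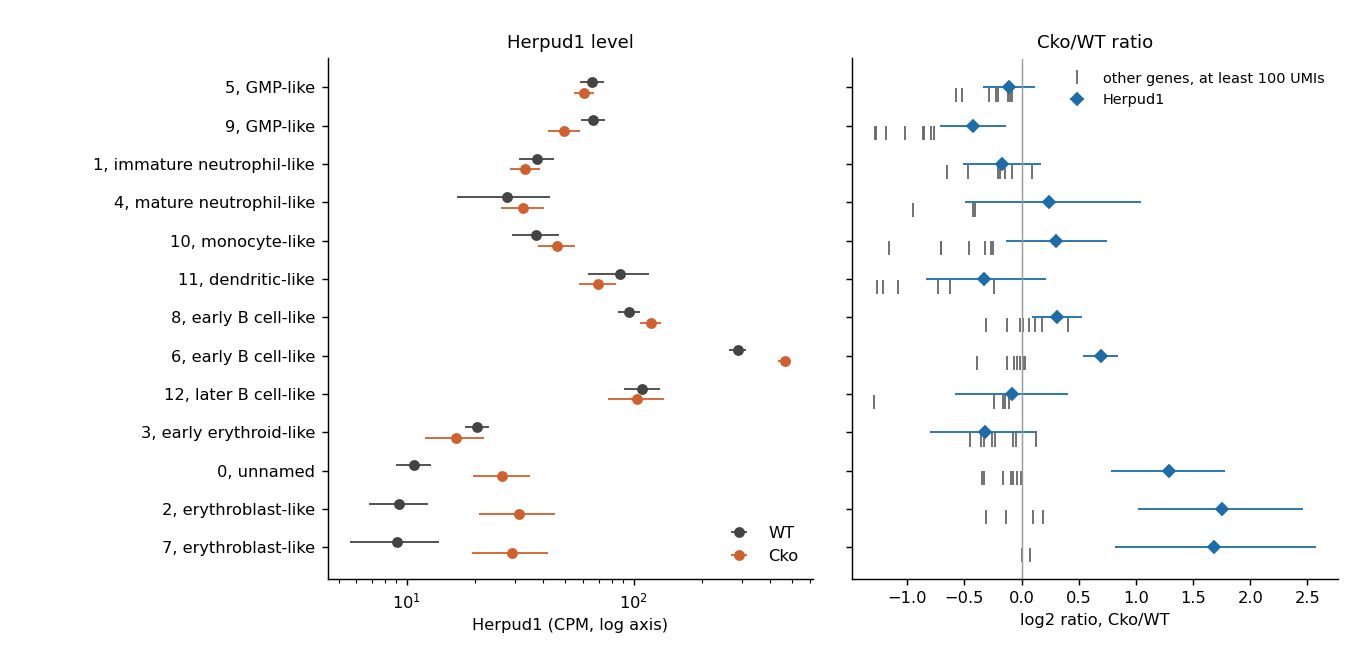
Left, Herpud1 level (CPM, log axis) in the 13 clusters with at least 50 cells in both libraries, WT in grey and Cko in orange, with 95% Poisson intervals. Right, log2 ratio of Cko to WT of Herpud1 (blue diamonds, with 95% intervals) and of the other members with at least 100 UMIs (grey ticks). Herpud1 is to the right of all ticks in cluster 6 and in the erythroid clusters 0, 2 and 7, and also in clusters 4, 9, 10 and 12. Herpud1 itself is drawn at any count, with 46 WT and 28 Cko UMIs in cluster 2 and 21 and 28 in cluster 7.

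Dnajb9, listed in the Cko only, was at 11.6 CPM (400 UMIs) in all Cko cells. It was at 15.4 CPM (12.5 to 18.8) in cluster 5, at 18.2 CPM (12.4 to 25.9) in dendritic-like cells and at 18.6 CPM in mature neutrophil-like cells. In the 18 stromal-like cells it had 9 UMIs, or 71.7 CPM (32.8 to 136). Atf6 was likewise listed in the Cko only, at 7.99 CPM (275 UMIs).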

How the data were processed

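Bone marrow cells of 1 WT and 1 Cko mouse were profiled with the Chromium Single Cell 3′ v2 chemistry. The deposited tables hold UMI counts per gene and cell, which the authors made with Cell Ranger (version not given in the sources used here) on GRCm38. Each library has its own gene list. Barcodes under 200 genes were left out. Scrublet (scanpy 1.11.5) marked 2.03% of WT and 1.39% of Cko cells as doublets, which stayed in, and both libraries were clustered jointly with Seurat 5.3.0 in R 4.3.3 (2000 variable genes, 20 principal components, mitochondrial and ribosomal shares regressed out), without the genes of the ER and Stfa lists, at the lowest resolution that gave at least 18 clusters, 0.5. A cluster was named when at least 3 fixed markers were among its 25 leading genes, so names may differ from the study's. Counts were summed over the cells of a cluster or class and given per 1000000 UMIs (CPM) with exact Poisson intervals, exact conditional intervals for ratios and exact binomial intervals for shares, with scipy 1.17.1. All are at 95% and cover counting error only.

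The groups were the genotypes given by the labels. With 1 library per genotype no test was made, and a gene was called higher or lower past a fold of 1.5 where it was listed in both tables and had at least 100 UMIs in the cells compared. All 10 genes were named, together with the 10 genes most like their sum. The members were taken by name and not by their values, but they and the lists were chosen with earlier results of these data known. The intervals were tried on simulated Poisson counts, the model that they assume. This could check the calculation but not the spread between cells or mice. Other clusterings, scalings and folds were tried. Proteins were not analysed here.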

Additional observations from a re-analysis of the deposited data

How the results depend on the processing

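No paired analysis was possible because each genotype has 1 library and the labels give no replicate numbers. For the GMP-like class the log2 ratio of Cko to WT was -0.44. It was -0.37 at resolution 2.0, -0.41 without regression, -0.38 without doublets, -0.55 with 500 genes per cell, -0.36 with marker scores, -0.39 without hemoglobin, ribosomal and mitochondrial genes, -0.12 as UMIs per cell, -0.36 divided by the median ratio of all genes and -0.48 as the mean over cells. The class held 692 WT and 624 Cko cells, but 340 and 256 at resolution 2.0, 291 and 220 without regression, 364 and 256 without doublets and 366 and 319 with 500 genes, so these values are over unlike sets of cells. For monocyte-like cells it was -0.55, and -0.64 at resolution 0.4, -0.36 at 2.0, -0.40 without doublets, -0.38 with 500 genes, -0.18 as UMIs per cell, -0.46 as the mean over cells and -0.39 as the median of the members. For dendritic-like cells it was -0.86, and -0.73 as the median of the members; several settings formed no such class. For the Elane-led cluster it was -0.95, and -1.11 with libraries clustered separately, -0.45 at resolution 0.4, -0.37 at 2.0, -0.41 without regression, -0.38 without doublets, -0.55 with 500 genes, -0.82 as UMIs per cell and divided by the median ratio, -0.86 as the median of the members, -0.71, -0.56 and -0.70 in its stage bins, and -0.36, -0.44 and -0.58 in cells with at least 0.5, 1 and 2% Elane UMIs, the bins, gates and median being chosen after seeing the data.

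For the counts of genes that follow, the share of all genes past the fold was not computed at the other settings. The count of members lower in the Elane-led cluster was 8. It was 2 at resolutions 0.4 and 2.0, without regression and without doublets, 3 with 500 genes, 4 at a fold of 2, 3 and 4 in the middle and highest stage bins, and 1, 3 and 4 in the Elane gates. The count of ER entry genes lower there was 3. It was 9 with separate clustering, 6 without hemoglobin, ribosomal and mitochondrial genes, 5 over genes in both tables, 5 in cells under 1% hemoglobin, 1 in the 1% Elane gate, and 0 at resolutions 0.4 and 2.0, without regression, without doublets, with 500 genes, at a fold of 2 and in the 0.5% gate. Of the 9 classes with at least 50 cells in both libraries 8 were below 1, and 5 at resolution 2.0 and 5 as UMIs per cell. The log2 ratio of GMP-like to other cells was 2.11 in the WT, and 1.81, 2.16, 1.83, 2.03, 1.89, 1.76, 2.14 and 1.83 with separate clustering, resolution 0.4, resolution 2.0, no regression, no doublets, 500 genes, marker scores and without hemoglobin, ribosomal and mitochondrial genes. In the Cko it was 1.81, and 1.43, 1.58, 1.44, 1.19, 1.86 and 1.86 at resolution 2.0 and at the last 5 of these. Unthinned, Calr was seen in 92.6% of WT and 82.6% of Cko cells of the cluster. The cause of these differences was not tested. Depth limits Pdia4, Pdia6, Creld2 and Sdf2l1, which had under 100 UMIs in at least 1 neutrophil bin.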
